A study of Mus musculus with 2 samples.

Results

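Glutathione and oxidative stress defence genes were examined as a set of 44 genes in the skin of transgenic mice that overexpress Pla2g2f, a secreted phospholipase A2. The set was chosen by gene name, not by its values on these arrays. It holds 18 glutathione transferases, 5 genes of glutathione synthesis and recycling, 4 glutathione peroxidases, 10 genes of the thioredoxin and peroxiredoxin system, 3 superoxide dismutases, the regulators Nfe2l2 and Keap1, and Nqo1 and Hmox1. All 44 had at least 1 probe by name, 69 probes in all. A gene counted as measured when its brightest probe was well above background on array 1, in the control channel, the transgenic channel or both, which held for 35 of the 44 and for 10454 genes or transcripts in all. The other 9 (Gclm, Gsta2, Gsta4, Gstm4, Gstm6, Gstt1, Gstt2, Slc7a11 and Sod3) were not well above background in either channel and give no usable ratio.

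The groups were Pla2g2f-Tg/+ mice, heterozygous for the transgene by that notation, and their littermate controls without it. Both were on a C57BL/6 background, 25 days old and fed a standard diet, and total skin RNA was pooled from 4 mice per genotype. The sources used here do not give the promoter that drives the transgene or the sex of the mice. On array 1 the transgenic pool carried Cy5 and the control pool Cy3, and on array 2 the dyes were exchanged. Nothing in the labels says that the arrays held separate pools, so they count as 1 replicate, no p-value can be given, and the spread between them is technical. Each value below is a log2 ratio of transgenic over control, in which 1 is a doubling. A gene is said to have risen or fallen when it was at least 2-fold apart the same way on each array, a rule of size and not a test. Whole skin RNA cannot tell more cells of a type from more RNA per cell.

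Glutathione is a small thiol peptide that cells make from glutamate, cysteine and glycine. Transferases attach it to reactive compounds, peroxidases spend it to reduce hydrogen peroxide and lipid hydroperoxides, and a reductase restores it with NADPH. Thioredoxin and the peroxiredoxins form a parallel system for peroxide and protein thiols. The transcription factor NRF2, encoded by Nfe2l2 and held in check by KEAP1, raises many of these genes when electrophiles or oxidants modify KEAP1. In skin the systems protect keratinocytes and sebaceous cells, whose lipids are prone to peroxidation.

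The results turn on 3 transferase genes that rose and on Gclc and Txnrd1, the measured members with the lowest ratios. Their probes, each 60 bases long, identify what was measured, and the opening 30 bases of each follow, 5′ to 3′, from the scanner file. The file places them on mm8 and does not say in which exon or untranslated region they lie.
Mgst1, chr6:138120619-138120678, plus strand: agaattcctatattttcagtggattcaaac
Mgst2, chr3:51770456-51770515, plus strand: agattcctgaacgaatacctggactttcat
Gsta3, chr1:21250259-21250318, plus strand: tgacgaggaacggccggatgctctctagtt
Gclc, chr9:77579173-77579232, plus strand: agtgaactggcttgtacattttgaattctt
Txnrd1, chr10:82327284-82327343, plus strand: cctttcaagtctgccagtctctgagatcag

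NRF2 binds the antioxidant response element, whose core was searched as TGACNNNGC on both strands of each gene's promoter, taken as 250 bases before to 50 after the start in RefSeq (GRCm38.p6). The related AP-1 site TGACTCA, which can overlap that core, was searched in the same way. Promoters were listed for 37 of the 44 genes, and 47 promoters in all were searched. The other 7, Gclc, Gsr, Hmox1, Prdx6, Gsta4, Gstt2 and Sod3, had no promoter listed and were not searched. The core was found in 9 of these 47 promoters (19.1%), beside 12.4% of all 32851 promoters of that length. TGACTCA was found in 5 of 47 (10.6%), beside 5.2% of all. Counted by gene, the core was found at 9 of 37 members (24.3%) and at 14.0% of all 27025 genes. The core was found at Mgst1, Gsta3, Txnrd1, Prdx1, Srxn1, Sod1, Gstm5, Nfe2l2 and Gclm. The 8 of these that were measured have ratios above and below 0. The 250 bases before the start are shown for the 3 genes that rose and for Txnrd1, with matches to either motif in capitals.
Mgst1, chr6:138140277-138140526, plus strand: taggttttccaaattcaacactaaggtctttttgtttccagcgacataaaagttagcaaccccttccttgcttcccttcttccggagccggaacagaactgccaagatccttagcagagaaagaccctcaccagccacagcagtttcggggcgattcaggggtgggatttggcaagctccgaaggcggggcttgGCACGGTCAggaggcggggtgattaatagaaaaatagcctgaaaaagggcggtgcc
Mgst2, chr3:51660929-51661178, plus strand: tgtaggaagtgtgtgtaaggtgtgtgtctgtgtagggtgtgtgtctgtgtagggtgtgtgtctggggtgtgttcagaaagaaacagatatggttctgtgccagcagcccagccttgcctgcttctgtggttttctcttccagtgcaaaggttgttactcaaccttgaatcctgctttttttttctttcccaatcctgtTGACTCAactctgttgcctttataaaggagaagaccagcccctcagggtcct
Gsta3, chr1:21240335-21240584, plus strand: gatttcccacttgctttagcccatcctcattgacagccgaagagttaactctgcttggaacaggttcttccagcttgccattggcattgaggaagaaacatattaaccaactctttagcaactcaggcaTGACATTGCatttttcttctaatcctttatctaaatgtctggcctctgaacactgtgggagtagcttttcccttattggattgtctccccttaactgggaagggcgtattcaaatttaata
Txnrd1, chr10:82858956-82859205, plus strand: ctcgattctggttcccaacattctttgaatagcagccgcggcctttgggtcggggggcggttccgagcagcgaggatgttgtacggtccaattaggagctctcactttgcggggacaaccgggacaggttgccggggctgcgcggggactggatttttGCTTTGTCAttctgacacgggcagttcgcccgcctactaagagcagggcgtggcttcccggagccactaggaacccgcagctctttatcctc
Mgst1 and Txnrd1 have more than 1 start in the table, and the start shown for each is the one whose promoter held the core, which their other promoters did not. The match at Mgst1 lies 47 bases before the start and at Txnrd1 83 bases, both on the antisense strand, and that at Gsta3 lies 112 bases before it on the sense strand. Mgst2 held TGACTCA, 45 bases before its start, and no match to the core in this window. A match describes the letters only.

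Across the arrays, the measured values of the set were close to each other. The median difference between arrays was 0.15 over the 35 genes, against 0.23 over all genes measured, and the largest was 0.63, for Gpx2. That comparison was not matched for signal, and 27 of the 35 had a signal above the median gene's. The probe for Pla2g2f itself gave log2 ratios of 0.54 and 0.34, above 0 on both arrays but short of 2-fold, and a mean of -0.02 on the spike-in scale described next, so it is a weak check of the labels. Whether this probe detects the transgene's transcript is not known from the sources used here. Keratinocyte genes were present, 9 of 10 listed being measured, among them Krt5, Krt14, Krt1 and Krt10, with Dsg3 dim. All 14 skeletal muscle genes listed were measured too, so the RNA held more than epidermis. The scale of the ratios is the arrays' own, and the spike-in RNAs added during labelling lay 0.46 higher against the transgenic pool. This is the median of 10 spike-in probes, each averaged over both arrays, and the spread between the probes is not given here. The same 0.46 was taken from each array, so a difference in scale between the arrays is not corrected. Set on the spike-ins, every gene moves down by that amount, the median gene from -0.01 to -0.47, and 17 of the 35 defence genes change sign.

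By the size rule, 3 of the 35 measured genes rose, Mgst1, Mgst2 and Gsta3, all glutathione transferases, and 0 fell. Over all genes measured 3.72% rose and 1.68% fell by the same rule. At 1.5-fold on each array, 7 genes were higher (Gpx3, Gsto1, Srxn1 and Txnrd2 in addition), beside 8.26% of all genes, and 1 was lower, Gclc, beside 3.8%. Above 0 on both arrays were 27 of 35 (77.1%), where 35.3% of all genes were, and below 0 on both were 7 (20.0%), where 35.7% were. The median of the 35 was 0.19, beside -0.01 for all genes. Set on the spike-ins, 8 of 35 (22.9%) were above 0 on both arrays, beside 10.8% of all genes, and the median of the 35 was -0.26. Of the 35, 27 had a signal above the median gene's, and 20 of these 27 (74.1%) were above 0 on both arrays, beside 37.2% of the 5227 genes that bright, a comparison chosen after seeing the data.

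**Figure D1:**
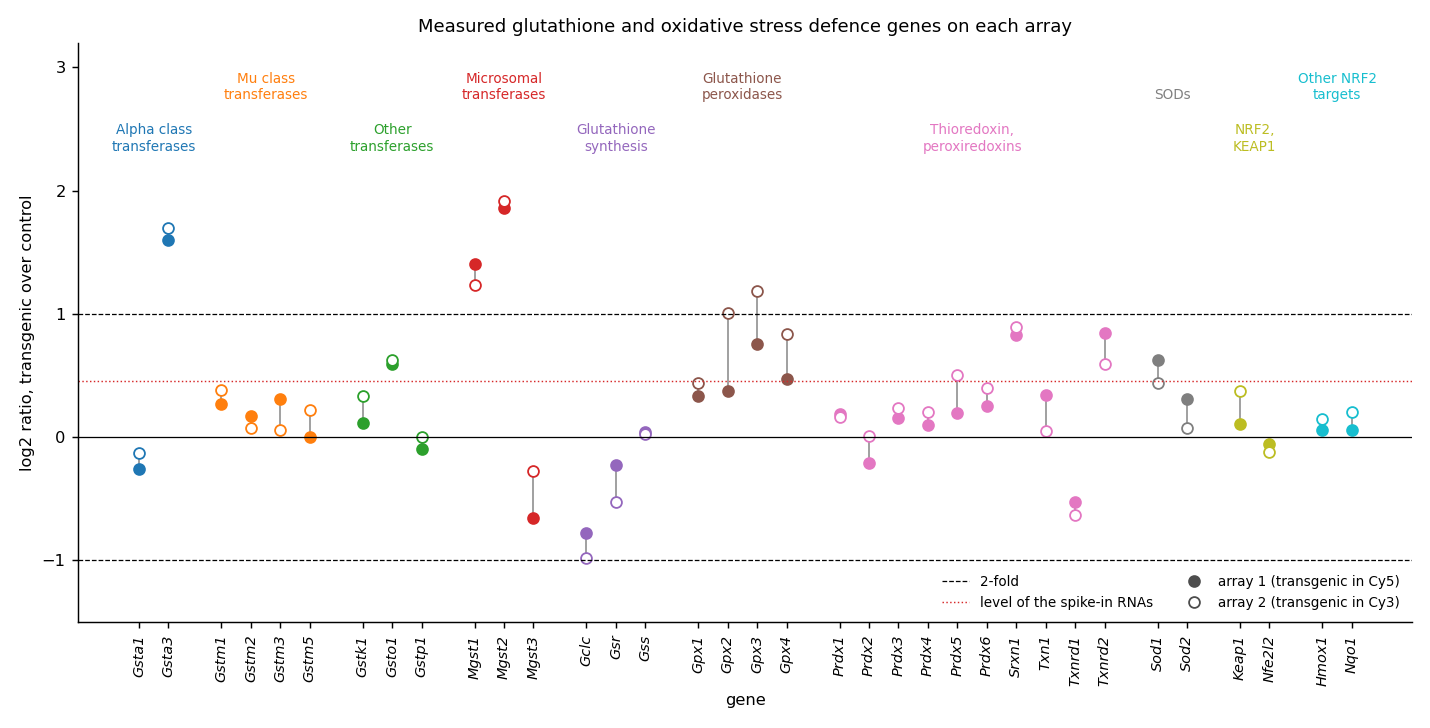
The log2 ratio of transgenic over control is plotted for each of the 35 measured genes, grouped by family, with array 1 as a filled and array 2 as an open circle, 2-fold as dashed lines and the level of the spike-in RNAs (0.46) as a dotted line. Mgst1, Mgst2 and Gsta3 lie above 2-fold on both arrays, and Gclc lies lowest, at -0.78 and -0.98.

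The microsomal transferases are small membrane enzymes that join glutathione to lipophilic compounds and reduce lipid hydroperoxides. Mgst2, which can also make leukotriene C4 from leukotriene A4, had a processed signal of 748 in the control and 2713 in the transgenic channel of array 1. Its log2 ratios were 1.86 and 1.92, a mean 3.70-fold rise, and it ranked 110 from the highest of 10454 genes. Mgst1, an abundant enzyme of the endoplasmic reticulum and outer mitochondrial membrane, had signals of 4343 and 11487. Its log2 ratios were 1.40 and 1.24, a mean 2.50-fold rise, and its other probe gave a mean of 1.18. Both genes were far brighter in the transgenic channel, and neither ratio rests on a dim spot. Set on the spike-ins Mgst2 kept the 2-fold rule, with a mean of 1.43, while Mgst1 at 0.86 no longer passed it. Mgst3, the remaining member, lay below 0, with signals of 1721 and 1091 and log2 ratios of -0.66 and -0.28. Its 60-base probe covers 1811 bases of chromosome 1 and so crosses an intron, and its other measured probe gave a mean of -0.35. The family thus held 2 genes that rose and 1 below 0 on both arrays.

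Among the soluble alpha class enzymes, which reduce organic hydroperoxides and conjugate their aldehyde products, 2 of 4 genes were measured. Gsta3 had a signal of 159.7 in the control channel, not well above background, and 483 in the transgenic channel. Its log2 ratios were 1.60 and 1.70, and its other probe gave a mean of 1.63. With the control raised to 199, the dimmest signal that still counted as above background in that channel, Gsta3 was at least 2.43-fold higher on array 1. With normexp background correction and loess, changed together, the array 1 ratio was 0.35, and Gsta3 no longer passed. Gsta1 had log2 ratios of -0.26 and -0.13 from signals of 376 and 314. The alpha class genes are close copies, as are those of the mu class, so a probe of one can take up transcripts of another.

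The mu class genes, which lie side by side on chromosome 3, held near the level of the control pool. Gstm1 had log2 ratios of 0.27 and 0.38, Gstm2 of 0.17 and 0.07, Gstm3 of 0.31 and 0.06, and Gstm5 of 0.00 and 0.22. All 4 were above 0 on both arrays, 0 passed the rule, and all 4 turned below 0 when set on the spike-ins (Gstm1 to -0.13, the family median from 0.15 to -0.31). Gstp1, the pi class enzyme typical of epithelia, had signals of 11462 and 10709 and log2 ratios of -0.10 and -0.00, and its other probe gave a mean of 0.06. Gstk1, a kappa class enzyme of mitochondria and peroxisomes, lay at 0.11 and 0.33 and turned to -0.24 on the spike-ins. Gsto1, an omega class enzyme that reduces thiol adducts, lay at 0.59 and 0.62, from signals of 2088 and 3150, which is past 1.5-fold and short of 2-fold. Over all 12 measured transferases, 3 rose, 0 fell and 9 lay within 2-fold on at least 1 array. Their median was 0.20 and became -0.26 on the spike-ins.

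**Figure D2:**
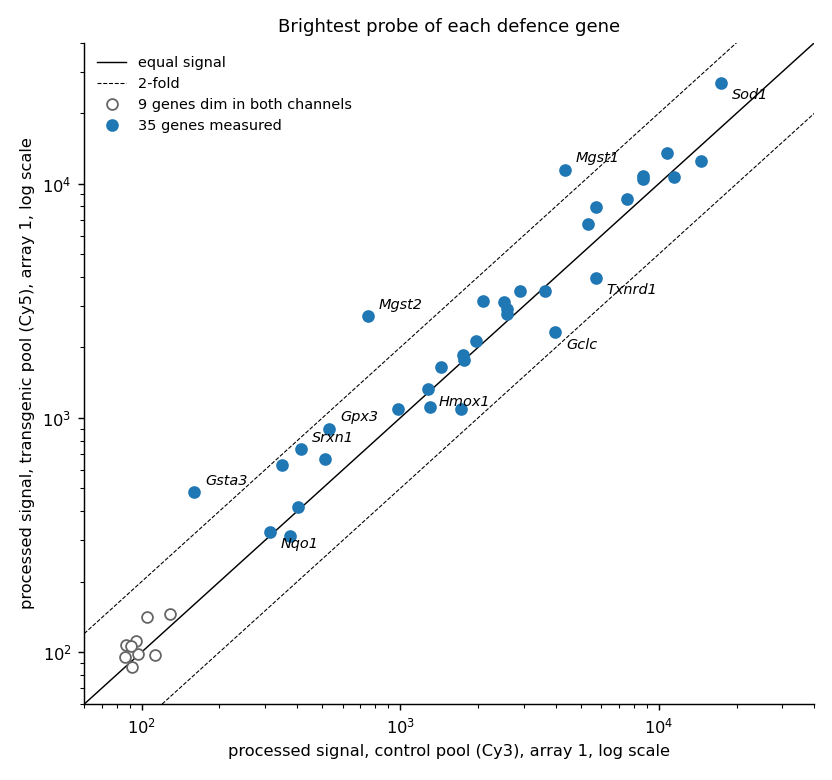
Processed signal of the brightest probe of each of the 44 genes on array 1 is plotted on log scales, control pool (Cy3) across and transgenic pool (Cy5) upward, with lines for equal signal and 2-fold. The 9 open circles are genes dim in both channels, and Mgst1, Mgst2 and Gsta3 stand above the 2-fold line.

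Among genes that make and recycle glutathione, 0 of 3 measured passed the rule. Gclc encodes the catalytic subunit of glutamate-cysteine ligase, the rate-limiting step. Its signals were 3971 in the control and 2316 in the transgenic channel. The log2 ratios of Gclc were -0.78 and -0.98, a mean 1.84-fold lower level, short of the rule on both arrays. With normexp and loess the array 1 ratio of Gclc was -0.59. Set on the spike-ins its mean was -1.34 and it passed. Gsr, the glutathione reductase, had log2 ratios of -0.23 and -0.53, and its 3 probes gave means from -0.38 to -0.17. Gss, which completes the synthesis, lay at 0.04 and 0.02 and turned to -0.42 on the spike-ins. The regulatory subunit Gclm and the cystine transporter Slc7a11 were dim with every probe, which leaves 3 of the 5 genes with a ratio, of which 2 were below 0 on both arrays.

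Glutathione peroxidases use glutathione to reduce peroxides, and all 4 were measured. Gpx3, the secreted plasma form, had signals of 533 and 901 and log2 ratios of 0.76 and 1.18. Gpx2, an epithelial form, had signals of 514 and 666 and log2 ratios of 0.37 and 1.01, the widest gap between arrays in the set. Gpx4, the enzyme that reduces phospholipid hydroperoxides within membranes, lay at 0.47 and 0.83. Gpx1, the main cytosolic form, lay at 0.34 and 0.44. All 4 were above 0 on both arrays and 0 passed 2-fold, although from array 2 alone Gpx2 and Gpx3 did. With normexp and loess the array 1 ratios were 0.12 for Gpx2, 0.36 for Gpx3, 0.41 for Gpx4 and 0.29 for Gpx1. Each of the 4 was higher on array 2 than on array 1, the family median being 0.42 on array 1 and 0.92 on array 2. On the spike-ins the median of the 4 was 0.21 and Gpx1 turned to -0.07.

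In the thioredoxin system, genes lay on either side of the control level. Srxn1, sulfiredoxin, which repairs overoxidised peroxiredoxins, had signals of 413 and 733 and log2 ratios of 0.83 and 0.90, a mean 1.82-fold higher level. Its ratio rests on 1 of 3 probes, the other two being dim, and with normexp and loess the array 1 ratio was 0.29. Txnrd1, the cytosolic thioredoxin reductase, had signals of 5700 and 3956 and log2 ratios of -0.53 and -0.63, a mean 1.49-fold lower level. Txnrd2, the mitochondrial reductase, lay at 0.84 and 0.60, but this came from a probe designed on the cDNA AK008004, and both probes on its RefSeq transcript were dim. With normexp and loess the array 1 ratio of Txnrd2 was 0.27. Txn1, thioredoxin itself, lay at 0.34 and 0.05 and turned to -0.26 on the spike-ins.

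The 6 peroxiredoxins, which reduce hydrogen peroxide with cysteine residues, stayed within 1.5-fold on both arrays. Prdx6, which also carries a phospholipase A2 activity, had log2 ratios of 0.26 and 0.39, and Prdx5 of 0.20 and 0.50. Prdx3, the mitochondrial form, lay at 0.15 and 0.24, Prdx4, of the secretory pathway, at 0.10 and 0.21, and Prdx1 at 0.19 and 0.16. Prdx2, a cytosolic form abundant in red cells, was printed 10 times and lay at -0.21 on array 1 with a standard deviation between spots of 0.05 and at 0.01 on array 2 with one of 0.05. Its 3 probes gave means from -0.32 to -0.10, all below 0. On array 2 the 3 probes lay at 0.01, -0.003 and -0.18, so the sign on that array rests on the probe. All 5 peroxiredoxins above 0 turned below 0 on the spike-ins. Over the 10 genes of the thioredoxin group 0 rose and 0 fell, with a median of 0.20.

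Superoxide dismutases convert superoxide to hydrogen peroxide. Sod1, the copper and zinc enzyme of the cytosol, had signals of 17452 and 26991 and log2 ratios of 0.63 and 0.44. Sod2, the manganese enzyme of mitochondria, lay at 0.31 and 0.07 and turned to -0.27 on the spike-ins. Neither passed, and the extracellular Sod3 was dim.

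Nfe2l2, which encodes NRF2, had log2 ratios of -0.05 and -0.12, and Keap1 lay at 0.11 and 0.38. Nqo1, a quinone reductase widely used as an NRF2 readout, had signals of 314 and 327 and log2 ratios of 0.06 and 0.20. Hmox1, haem oxygenase 1, had signals of 1275 and 1324 and log2 ratios of 0.05 and 0.15. None (0) of these 4 was past 1.5-fold on either array, and Keap1, Nqo1 and Hmox1 turned below 0 on the spike-ins. Among 12 genes of the set that are well known NRF2 targets, 9 were measured, and 0 rose and 0 fell. The 9 spanned -0.88 for Gclc to 0.86 for Srxn1, with 5 above and 4 below 0 on both arrays and a median of 0.10 (-0.36 on the spike-ins). The 4 below 0 were Gclc, Txnrd1, Gsr and Gsta1. The list of 12 was drawn up for this report and is not a full list of targets. That Mgst1, Mgst2 and Gsta3 were not placed on it is a choice and not a result. Whether NRF2 acts on these 3 genes was not tested.

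**Figure D3:**
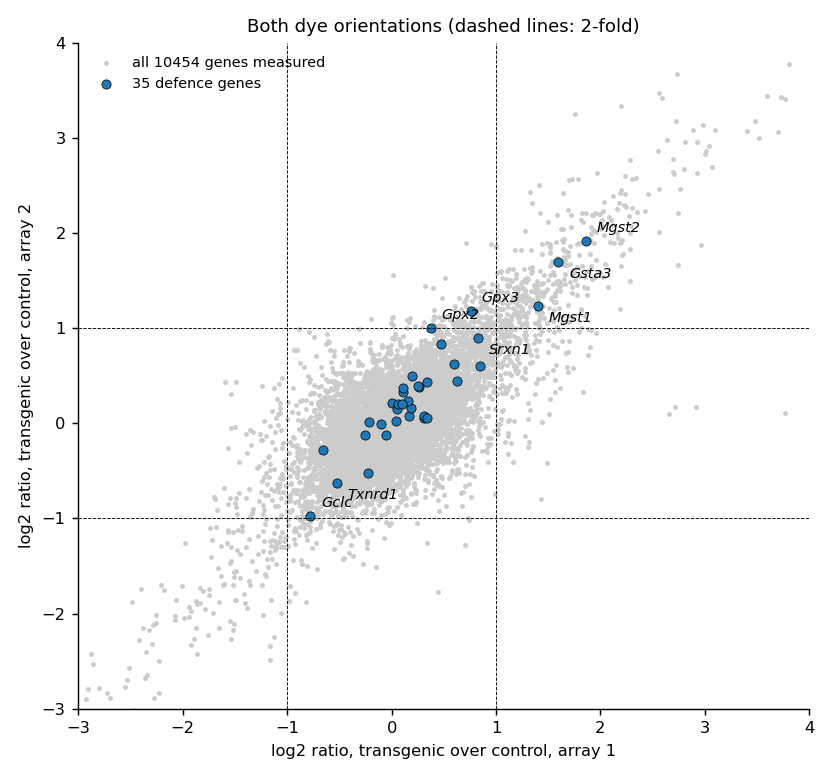
The log2 ratio on array 2 is plotted against that on array 1 for all 10454 genes measured (grey, of which 49 fall outside the axes) and for the 35 defence genes (blue), with dashed lines at 2-fold. Mgst1, Mgst2 and Gsta3 lie in the upper right corner beyond both lines, and 0 defence genes lie in the lower left.

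Other genes of the pathway were read from a list of 114, of which 85 were measured. Of these, 9 rose and 2 fell, where 3.72% and 1.68% of all genes did, and the other 74 did neither. The list's median was 0.24 (-0.22 on the spike-ins), beside -0.01 (-0.47 on the spike-ins) for all genes. On the spike-ins 2 were higher and 4 lower. With array 1 by normexp and loess, 1 gene of the list passed as higher and 1 as lower. Abcc3, an exporter of glutathione conjugates, gave the largest ratio of the list, 3.41 and 3.07, with a control signal not well above background. It was at least 4.76-fold higher on array 1. Glrx, the glutaredoxin that removes glutathione from proteins, rose 3.03-fold, with log2 ratios of 1.53 and 1.67. Me1, the malic enzyme that supplies NADPH for lipid synthesis, rose 2.76-fold, at 1.56 and 1.36. Abcc3 and Glrx also passed on the spike-ins, and Me1 did not.

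Cat, the catalase of peroxisomes, had log2 ratios of 1.06 and 1.20 and Gstz1, a zeta class transferase of tyrosine breakdown, of 1.14 and 1.13. Slc1a5, a glutamine transporter, lay at 1.07 and 1.31, and Cp, the copper-carrying ferroxidase ceruloplasmin, at 1.40 and 1.27. All 4 rose by the rule, and none (0) of them passed it on the spike-ins. Of 20 listed enzymes that produce oxidants, 6 were measured and 2 rose, both with dim control signals: Ncf4, a phagocyte oxidase subunit, was at least 1.82-fold and Noxo1, an organiser of NADPH oxidase 1, at least 1.44-fold higher on array 1. The other 14 were dim.

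The 2 genes that fell were Mt4 and Chac1. Mt4, a metallothionein of stratified epithelium, had signals of 4183 and 992 and log2 ratios of -2.08 and -2.06. Chac1, which breaks down glutathione in the cytosol, had signals of 1263 and 480.4 and log2 ratios of -1.39 and -1.30. Chosen after their values were seen, the metal-binding Mt1 and Mt2, which are also induced by oxidants, lay at -0.59 and -0.85 and at -0.73 and -0.89. On the spike-ins their means were -1.18 and -1.27, and both passed the rule as lower. Other genes of the metal-binding list went the other way, with Mt3 at 0.14 and 0.40 and Trf at 0.84 and 1.44. Of the 6 measured genes of that list, 3 were above and 3 below 0 on both arrays. Of 24 measured partners and other targets of NRF2, 0 rose and 0 fell, where 3.72% and 1.68% of all genes did. On both arrays 14 were above and 2 below 0, where 35.3% and 35.7% of all genes were. The median of the 24 was 0.24, and -0.22 on the spike-ins. This list too was drawn up for this report and is not a full list of targets. That Abcc3 and Me1, which rose, were placed under other headings is a choice and not a result.

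Markers of several skin cell types differed between the pools in larger steps than most defence genes. For comparison with each marker list, 3.72% of all genes measured rose and 1.68% fell. The median of all genes was -0.01, or -0.47 on the spike-ins. Of 13 sebaceous gland genes 7 were measured (Scd1, Fa2h, Soat1, Elovl3, Cidea, Plin2 and Pparg) and all 7 rose, with a median of 2.08. Their summed signal on array 1 was 20229.9 in the control and 87870.5 in the transgenic channel. Awat2, Dgat2l6, Far2, Mc5r and Scd3 were dim. Of 12 adipocyte genes 11 were measured and 8 rose, with a median of 1.35 and summed signals of 170147 and 457056, Lep being dim. On the spike-ins 6 of the sebaceous and 3 of the adipocyte genes passed as higher, and with array 1 by normexp and loess 6 and 5 did. The part of these lists in the ratios of Mgst1, Mgst2, Gsta3, Me1 and the peroxidases was not tested.

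Of 12 hair shaft keratins 9 were measured and all 9 fell, with a median of -3.57 and summed signals of 85892.5 and 10473, and Krt84 was dim. Krt31, Krt34, Krt36 and Krt86 were well above background only in the control channel, and 5 hair shaft keratins fell with both channels required. Of 8 pigment cell genes 6 were measured and 5 fell, with a median of -1.47, summed signals of 27853.9 and 12186.2, and Tyr and Oca2 dim. Of 12 macrophage genes 8 were measured and 3 rose, with a median of 0.97 and summed signals of 12459.5 and 28701. Cd14, Cd68, Fcgr1 and Itgam were dim. C1qa, among the 3 that rose, was well above background only in the transgenic channel. Raising its control signal to 199 gave a fold of 1.75 for array 1, short of the rule. With both channels required, 2 macrophage genes rose. By normexp and loess on array 1, 1 pigment cell gene passed as lower and 1 macrophage gene as higher, and on the spike-ins 6 and 0 did. The 2 measured erythroid genes of 8 listed, Hba-a1 and Alas2, had a median of 0.94 and summed signals of 6186 and 12104, and 0 passed the rule. Alas2 had a control signal not well above background, and Epb42 and Slc4a1 were among the dim genes. Prdx2 lay at -0.21 on array 1 and 0.01 on array 2. Endothelial genes had a median of 0.64 over 5 of 8 measured, 1 of which rose, with summed signals of 3285 and 5659 and Pecam1, Tek and Tie1 dim. Of the 14 skeletal muscle genes 2 rose, and the list's median was 0.11, with summed signals of 948292 and 1109740, and keratinocyte genes one of 0.14 over 9, 2 of which rose, with summed signals of 227468 and 338175. On the spike-ins the muscle and keratinocyte medians turned to -0.35 and -0.32, and 0 muscle, 1 keratinocyte and 0 endothelial genes passed as higher. By normexp and loess on array 1, 0 endothelial genes did. The part of these lists in the ratios of Gclc, Txnrd1, Mt4 and Ncf4 was not tested.

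**Figure D4:**
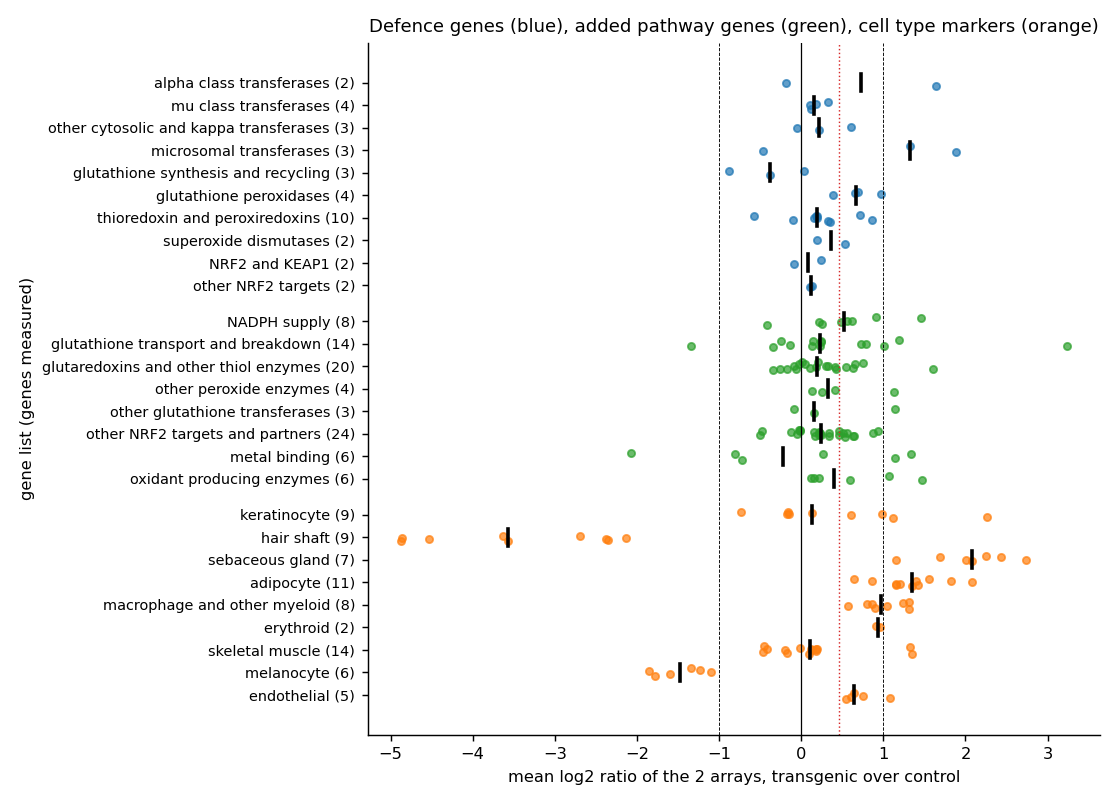
The mean log2 ratio of each measured gene is plotted by list, with defence genes in blue, the added pathway genes in green and cell type markers in orange, a black bar at each list's median, dashed lines at 2-fold and a dotted line at the level of the spike-in RNAs. Medians of the defence families run from -0.38 (glutathione synthesis and recycling) to 1.32 (microsomal transferases), between those of hair shaft (-3.57) and sebaceous gland (2.08) markers.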

How the data were processed

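Skin RNA (500 ng per labelling, per the labels' protocols) was hybridised to 2 two-colour Agilent arrays. The submitters' processing notes name Agilent Feature Extraction 9.5.1.1. Per the file headers, the deposited intensity values of array 1 were background-subtracted, spatially detrended and dye-normalised, with surrogates for dim spots. The authors' deposited value table holds a log10 ratio of Cy5 over Cy3 per array. Column 1 matched the processed signals within 5.0e-10. The columns, with medians of 0.0141 and -0.0234, correlated at -0.579, so array 2 was turned, as its dyes require. The sources used here do not state the steps behind array 2's column, whose scale was taken to be that of column 1.

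Ratios were converted to log2. Control spots and 29 flagged spots were left out, spots of a probe averaged, and 13339 of 41167 probes kept as well above background in at least 1 channel. The brightest probe stood for a gene. Probes were named through the RefSeq gene table of GRCm38.p6, 24370 of them by accession, 6300 by symbol and 2425 by synonym. The remaining 8072 carry the name on the array. The median over genes stands beside each list in place of a test. Alternatives used limma 3.58.1 (normexp offset 50, loess). The code that applies the size rule was run on simulated data, which gives the rule no error rate here. Every measured gene of the set is named, and of the added list those past 2-fold. Genes and lists were chosen with earlier results of these data known. The number of arrays limits the precision. Saturation was absent (0 spots) on array 1 and not checked on array 2, whose scanner output was not used here.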

Additional observations from a re-analysis of the deposited data

How the results depend on the processing

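The number of defence genes that rose (3) was 3 with probes averaged, with dim probes kept and with centring on the median. It was 2 with both channels required to be above background (Mgst1 and Mgst2), 2 with array 1 by normexp and loess (Mgst1 and Mgst2), 2 on the spike-ins (Mgst2 and Gsta3), 7 at 1.5-fold, and from 3 to 5 with a single array, since Gpx2 and Gpx3 passed on array 2. The number that fell (0) was 1 on the spike-ins and 1 at 1.5-fold, Gclc in both cases, and 0 in the remaining alternatives. Over all genes, 389 higher and 176 lower became 176 and 457 on the spike-ins, 107 and 56 by normexp and loess, and 243 and 86 with both channels above background. Of the added list, 9 higher and 2 lower became 2 and 4 on the spike-ins, 1 and 1 by normexp and loess, and 16 and 4 at 1.5-fold, with 9 to 12 higher from single arrays. On the spike-ins the medians were -0.26 for all 35 genes, -0.26 for transferases, 0.21 for glutathione peroxidases, -0.26 for the thioredoxin group and -0.36 for NRF2 targets. The transferase median was 0.14 with dim probes kept, and the thioredoxin median 0.17 by normexp and loess. From single arrays the medians ran from 0.19 to 0.22 (all), 0.22 to 0.27 (transferases), 0.42 to 0.92 (peroxidases), 0.19 to 0.22 (thioredoxin) and 0.05 to 0.15 (NRF2 targets). The alpha class median turned from 0.73 to -0.19 with both channels above background, which leaves Gsta1 alone. Dim signal limits Gsta3 and the 9 genes without a ratio.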
